A study of Mus musculus with 6 samples.

Results

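Hyaluronan is a long, unbranched sugar polymer of the matrix around cells, and the genes described here encode the enzymes that make it, the proteins that bind it and the enzymes that cut it. The group holds 9 genes, Has1, Has2, Has3, Hyal1, Hyal2, Cd44, Itih5, Tnfaip6 and Vcan, taken by symbol from the 16763 genes of the deposited table. All 9 passed the filter on low counts, as did 12891 genes in all. Tumors had been raised in BALB/c mice with 4T1, a line of mammary carcinoma cells derived from the same strain. The model group carried such tumors without the treatment, and the DMDD liposome group carried them and received DMDD, a compound named in the labels by its abbreviation alone, packed in lipid vesicles; its libraries are called treated below. Each group had 3 libraries of total RNA from tumor. The sources used here give no dose, time or age, the labels give the sex as male, and they do not say which mouse gave which library, so the spread between samples may be technical.

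Hyaluronan synthases sit in the plasma membrane, join activated glucuronic acid and N-acetylglucosamine, and push the growing chain out of the cell. Outside, the chain is held by the surface receptor CD44 and by matrix proteins such as versican, and TSG-6, the product of Tnfaip6, moves protein heavy chains of the inter-alpha-inhibitor family onto it. Hyaluronidases cut the chain, and enzymes of the lysosome finish the breakdown. In carcinomas the polymer is known as a part of the stroma, and CD44 is widely used as a surface marker of carcinoma cells.

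The members were selected on symbol with the read counts of both groups in view, so their differences between groups are descriptions and carry no test. Itih5 was higher in all 3 DMDD liposome libraries than in any model library, as held for 7.21% of all genes tested. Cd44 was lower on average in DMDD liposome, and Tnfaip6 and Vcan were higher on average. The groups overlapped for every member other than Itih5. A model fitted to all genes with edgeR's quasi-likelihood test called 0 of the 9 members at an adjusted p under 0.05, beside 0% of all 12891 genes tested. At an unadjusted p under 0.05 that fit found 1 member, Itih5, beside 7.65% of all genes tested: 4.34% on the higher side and 3.31% on the lower side of model. DESeq2 called 1 member, again Itih5, beside 0.408% of the genes to which it gave an adjusted p, and the authors' deposited table also called Itih5 and no other member, beside 0.346% of its genes. Of the 9 members 5 had a positive log2 fold change for DMDD liposome over model and 4 a negative one, with a median of 0.041, while 51.2% of all genes tested were positive with a median of 0.0058.

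The libraries held 13037500 to 15616840 counts, and 3 counts in a library stood for 0.193 to 0.23 CPM, the count relative to the library's scaled total. The defining genes of the tumor cells were present: the 6 epithelial markers (Epcam, Krt8, Krt18, Krt14, Cdh1 and Cldn7) summed to between 3082 and 5677 CPM in model and between 2821 and 3556 CPM in treated libraries. Libraries of both groups stood apart. Model replicate 2 carried genes of epidermal keratinocytes, which summed to 209.8 CPM there and to 5.444 to 6.95 CPM in the other libraries. Skeletal muscle markers summed to 111.5 and 232.6 CPM in treated replicates 1 and 3 and to 11.03 to 30.59 CPM elsewhere. Neutrophil markers summed to 188.6 to 239.7 CPM in model and 97.58 to 170.7 CPM in treated libraries. Mast cell markers summed to 10.5 to 64.48 CPM in model and 1.983 to 14.17 CPM in treated libraries. Leaving out model replicate 1 raised the genes called by edgeR from 0 to 112 over the whole table, with 0 members among them. In bulk tumor, fewer cells of a type and less RNA per cell cannot be told apart.

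The sequences just upstream of Itih5, Tnfaip6 and Vcan are shown because these members had their highest value in the same library, treated replicate 2, and lay above the model mean in at least 2 of the 3 treated libraries. They are the 250 bases before the annotated start in RefSeq's GRCm38.p6 table, which had an entry for 7 of the 9 members, all but Has2 and Has3. The submitters' processing notes name mm9, so these coordinates belong to the RefSeq build alone. Capitals mark matches on either strand to 4 short motifs: the TATA box as TATAAA, the CAAT box as CCAAT, the GC box as GGGCGG and the AP-1 motif as TGANTCA, where N is any base.
Itih5 (chr2:10153293-10153542, plus strand): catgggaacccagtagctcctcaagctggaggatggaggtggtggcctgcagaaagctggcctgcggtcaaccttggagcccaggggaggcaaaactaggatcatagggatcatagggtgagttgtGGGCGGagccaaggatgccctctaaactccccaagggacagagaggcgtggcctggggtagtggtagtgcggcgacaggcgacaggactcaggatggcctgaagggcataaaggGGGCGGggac
Tnfaip6 (chr2:52037863-52038112, plus strand): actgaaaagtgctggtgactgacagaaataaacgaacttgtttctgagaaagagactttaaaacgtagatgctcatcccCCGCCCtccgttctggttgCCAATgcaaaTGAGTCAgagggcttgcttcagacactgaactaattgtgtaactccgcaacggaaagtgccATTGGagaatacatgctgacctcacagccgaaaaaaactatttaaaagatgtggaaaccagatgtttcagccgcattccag
Vcan (chr13:89742513-89742762, minus strand): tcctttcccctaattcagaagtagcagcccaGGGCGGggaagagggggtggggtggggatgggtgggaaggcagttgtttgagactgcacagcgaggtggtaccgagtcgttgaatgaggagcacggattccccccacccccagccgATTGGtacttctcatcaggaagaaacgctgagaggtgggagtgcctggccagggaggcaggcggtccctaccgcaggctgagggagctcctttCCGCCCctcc

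Upstream of Itih5 GGGCGG occurred at 124 and at 10 bases before the start, and no other motif of the 4 was in the window. The Tnfaip6 window held TGAGTCA at 142 bases, CCAAT at 152 and, in reverse, at 81 bases, and GGGCGG in reverse at 171 bases before the start. Vcan had GGGCGG at 219 bases and in reverse at 10 bases, and CCAAT in reverse at 103 bases. Over all 32851 upstream windows of the table, 32.7% held the GC box, 33.8% the CAAT box, 6.75% the AP-1 motif and 12.4% the TATA box. GGGCGG was thus the motif that the 3 windows shared, and it is common. The windows of Hyal1 and Hyal2 also held it, while those of Has1 and Cd44 did not. No matches overlapped in these windows, and a match is a description of letters only.

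Levels are compared between genes per length, as the FPKM the authors deposited. Cd44 had the highest level of the 9, at 118.6 ± 46.2 FPKM (SD over all 6 libraries), and ranked 459 of 16763 genes by mean FPKM. Has2 followed at 26.5 ± 10.8 FPKM and Hyal2 at 16.9 ± 2.89 FPKM, and Has2 lay above Hyal2 in 4 of 6 libraries, so the order of this pair was not fixed. Far below came Vcan at 2.69 ± 1.71, Hyal1 at 1.43 ± 0.464, Tnfaip6 at 1.40 ± 1.08, Itih5 at 0.983 ± 1.01, Has3 at 0.558 ± 0.180 and Has1 at 0.410 ± 0.227 FPKM. Cd44 lay above Has2 in all 6 libraries and Hyal2 above Vcan in all 6, while none of the neighbouring pairs from Vcan down kept its order in every library. Cd44 was also above every other member in each library.

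**Figure D1:**
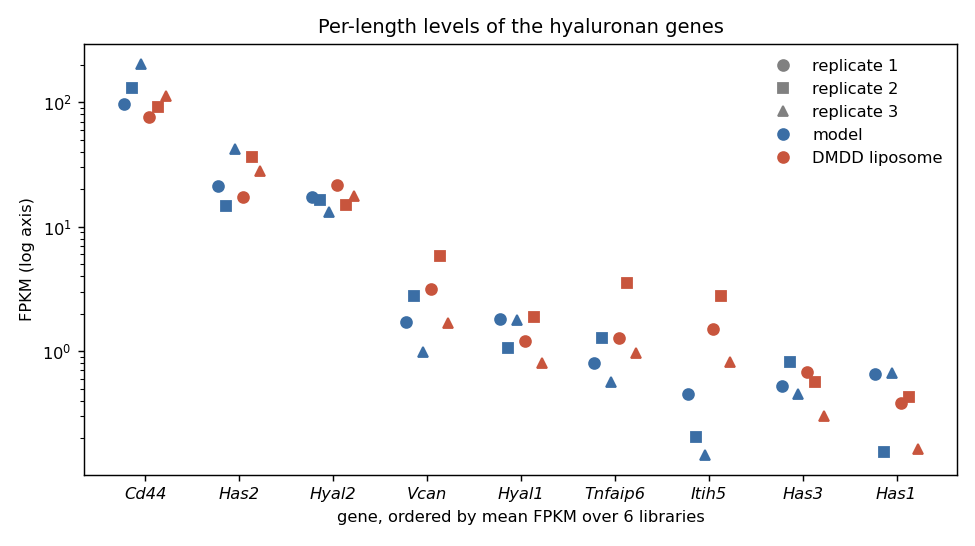
FPKM of each of the 9 genes in each of the 6 libraries on a log axis, with genes ordered by their mean and point shape giving the replicate number. Cd44 is the highest gene throughout, Has2 and Hyal2 overlap in second place, and 6 genes lie below 6 FPKM in every library.

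Has2 encodes the synthase best known for long hyaluronan chains in embryonic and stromal tissue. It had 1177, 963 and 2773 counts in model replicates 1 to 3 and 1005, 2065 and 1718 in treated replicates 1 to 3, or 111 ± 62.8 CPM against 115 ± 42.4 CPM (SD, n = 3 each). Model replicate 3 was the highest library and model replicate 2 the lowest, so the model group spanned the whole range. The log2 fold change for DMDD liposome over model was 0.041 ± 0.42 (SE), and its sign turned with the library left out, from -0.25 without model replicate 2 to 0.58 without model replicate 3.

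Of the summed FPKM of the 3 synthase genes Has2 gave 93.78% to 98.36%. The sum itself was 27.1 ± 14.2 FPKM in model and 28.0 ± 9.499 FPKM in treated tumors (SD, n = 3 each). Has3, whose product makes shorter chains, had 44, 81 and 45 counts in model and 60, 48 and 28 in treated tumors. Has1, the synthase gene with the least signal here, had 18, 5 and 22 counts in model and 11, 12 and 5 in treated tumors. The groups overlapped for both, with log2 fold changes of -0.24 ± 0.39 for Has3 and -0.63 ± 0.65 for Has1, and the counting error of so few reads is large. In both groups Has2 thus gave nearly all of the synthase signal per length.

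The supply of activated sugars is set by the enzymes of the hexosamine and UDP-glucose routes. Of 7 such genes 6 were tested, 3 higher and 3 lower, with a median log2 fold change of 0.032, and 0 were called or had an unadjusted p under 0.05. Ugdh, which makes the glucuronic acid donor and had the highest mean of this list at 44.9 FPKM, measured 122 ± 20.5 CPM in model and 108 ± 5.48 CPM in treated tumors (SD, n = 3 each). Gnpnat1, an enzyme of the hexosamine route, was the gene not tested, with 3 counts at most in a library.

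Cd44 encodes the main surface receptor for hyaluronan, which also binds osteopontin and ties the membrane to the cell cortex. It had 7084, 11480 and 18088 counts in model replicates 1 to 3 and 5945, 6906 and 9253 in treated replicates 1 to 3. In CPM that was 543, 740 and 1188 against 421, 522 and 631, so model replicate 1 lay inside the range of the treated libraries and the groups overlapped. The means were 824 ± 330 CPM and 524 ± 105 CPM (SD, n = 3 each), so that model was 1.57-fold higher, with -0.65 ± 0.29 (SE) as the log2 fold change. The value rested much on model replicate 3: without it the log2 fold change was -0.30, and without model replicate 1 it was -0.88. DESeq2 without model replicate 1 called Cd44 (adjusted p = 0.0119), but that fit called 867 genes over the whole table. With all libraries DESeq2 called 59 genes, or 0.408%, and the adjusted p of Cd44 was 0.429. The counts are per gene and do not separate the splice forms for which Cd44 is known.

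Cd44 also made up most of the group's signal per length, at 74.5 ± 5.41% of the summed FPKM of the 9 genes in model and 62.9 ± 5.68% in treated tumors (SD, n = 3 each). Per unit of Has2 FPKM there were 4.51, 8.93 and 4.89 units of Cd44 in model and 4.43, 2.51 and 4.04 in treated tumors. All 3 model libraries were above all 3 treated libraries in this ratio, by a gap of less than 0.1 between the nearest pair. Each of the genes overlapped between groups on its own. How often ratios of other gene pairs separate the groups was not computed, so this is a description. The epithelial marker sums given above moved with Cd44 in part, since model replicate 1 was low in both, and their part in the difference was not tested.

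The proteins that link CD44 to the actin cortex, its other ligands and the regulators of its splicing formed a list of 11 genes, all tested, with 5 higher, 6 lower and a median log2 fold change of -0.021. None passed edgeR's adjusted threshold, 3 were lower at an unadjusted p under 0.05, and DESeq2 called 0. Those 3 were Ezr, which encodes the linker ezrin, and Esrp1 and Esrp2, epithelial splicing regulators that act on Cd44. Ezr measured 579 ± 98.4 CPM in model and 418 ± 81.7 CPM in treated tumors (SD, n = 3 each), with a log2 fold change of -0.47 ± 0.18 (edgeR adjusted p = 0.629), and did not overlap between groups. Its nearest libraries were at 512 CPM in model and 509 CPM in treated tumors. Esrp1 measured 131, 173 and 185 CPM in model and 98.1, 126 and 112 CPM in treated tumors, also without overlap, at -0.54 ± 0.16 (edgeR adjusted p = 0.626). Esrp2 stood at -0.72 ± 0.28 with overlapping groups (26.4 ± 8.57 CPM against 16.0 ± 3.89 CPM). Without model replicate 2 that value was -0.44. With each library left out in turn, edgeR's unadjusted p was under 0.05 in 6 of 6 fits for Esrp1. For Ezr and Esrp2 this held in 3 of 6 fits each. Beside the 3 lower genes of this list, 3.31% of all genes tested were lower at an unadjusted p under 0.05. All 6 epithelial tumor cell markers were also lower in treated tumors (median -0.67 in log2 fold change), 3 of them at an unadjusted p under 0.05 and 1 without overlap. Their part in the values of Ezr, Esrp1 and Esrp2 was not tested.

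Msn, the gene of the linker moesin, was the third member of that list without overlap, at 1797, 1798 and 2102 CPM in model and 1479, 1657 and 1489 CPM in treated tumors. Over all genes tested, 5.66% were lower in treated tumors without overlap. The radixin gene Rdx, from the same linker family, differed little, at 210 ± 12.2 CPM against 207 ± 4.13 CPM. Spp1, which encodes the CD44 ligand osteopontin, had the highest mean of the list at 3133 FPKM and measured 4013 ± 887 CPM in model and 6317 ± 2726 CPM in treated tumors (SD, n = 3 each). Treated replicate 3 lay between the model libraries for Spp1, so its groups overlapped.

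**Figure D2:**
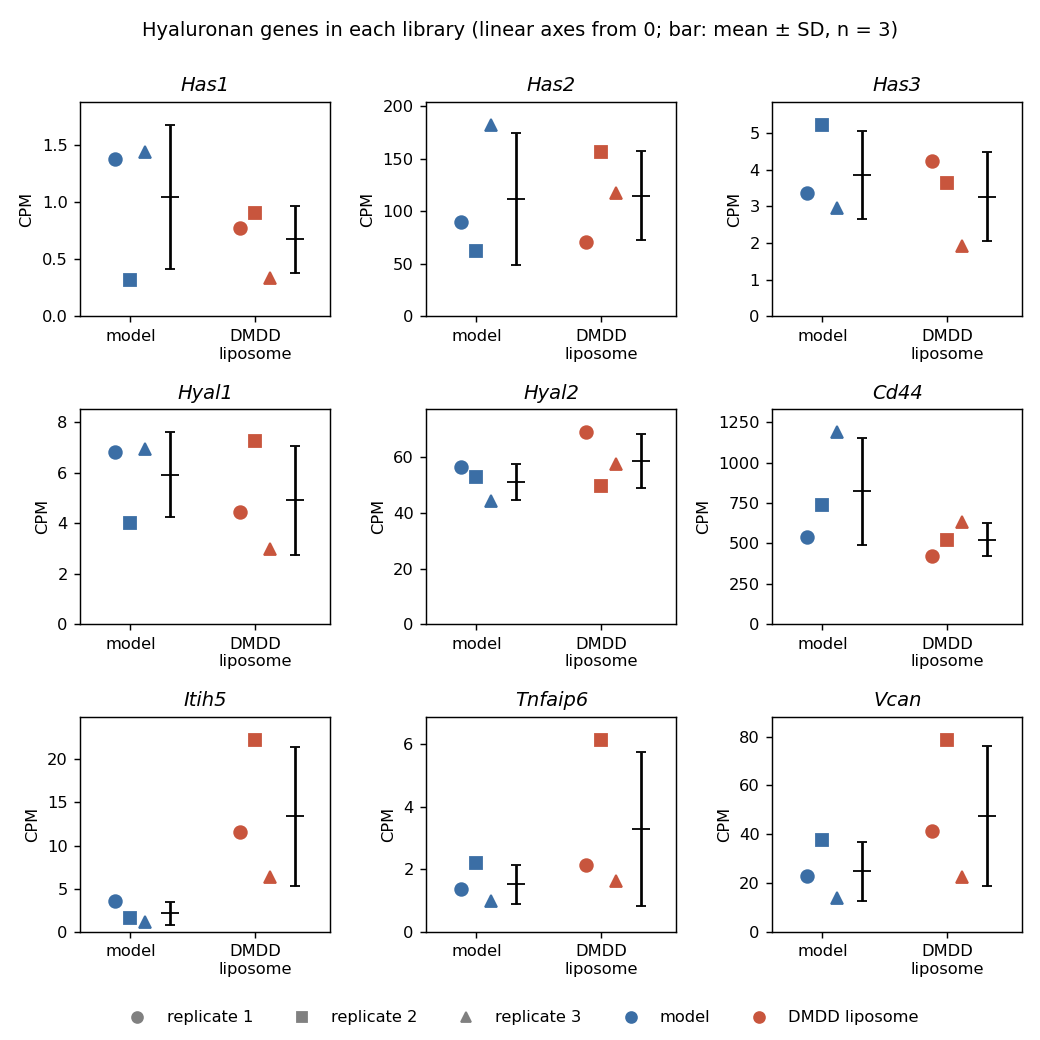
CPM of each of the 9 genes by group on linear axes that start at 0, with 1 point per library and the mean ± SD of 3 libraries beside the points. Itih5 is the gene whose groups do not overlap (at most 3.60 CPM in a model library and at least 6.41 CPM in a DMDD liposome library), and DMDD liposome replicate 2 is the highest point for Itih5, Tnfaip6 and Vcan.

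Itih5 encodes a heavy chain of the inter-alpha-inhibitor family, secreted proteins that can be joined to hyaluronan and stabilize the matrix. It had 47, 25 and 18 counts in model replicates 1 to 3 and 163, 294 and 94 in treated replicates 1 to 3. The lowest treated library held 94 counts and the highest model library 47, so the groups did not overlap, as held for 12.9% of all genes tested in either direction and for 7.21% in this one. The means were 2.13 ± 1.29 CPM and 13.4 ± 8.06 CPM (SD, n = 3 each), and the log2 fold change was 2.66 ± 0.57 (SE), or 6.31-fold higher in treated tumors. It was 2.07 without treated replicate 2 and 3.25 without model replicate 1. In the authors' deposited table the log2 fold change for model over DMDD liposome was -2.65 (adjusted p = 0.00101). DESeq2 lost its call without model replicate 3 (adjusted p = 0.0519) and kept it without any other single library, with adjusted p from 1.69e-06 to 0.0468.

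Other genes of the same protein family had few reads. Itih2 had 4, 0 and 0 counts in model and 34, 3 and 22 in treated tumors, Itih4 had at most 8 counts in a library and Itih3 at most 2, and Ambp, which encodes the light chain bikunin, had at most 7. None of the 4 passed the filter on low counts. Treated replicate 2, the highest library for Itih5, was the library with 3 counts of Itih2, so the counts of these family members were not ordered alike.

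The tested genes whose log2 CPM over the 6 libraries lay closest to that of Itih5, among 12546 with a mean of at least 1 CPM, were Tmem47 (Pearson correlation 0.992), Kbtbd11 (0.989), Fkbp14 (0.989), Sh3bp1 (0.988) and Clcc1 (0.985). These are descriptions over 6 libraries that share the treatment groups. Tmem47, which encodes a membrane protein of cell junctions, had 77, 65 and 51 counts in model and 135, 154 and 97 in treated tumors. The last of the 5, Clcc1, differed by a log2 fold change of only 0.10, so a shared order of libraries did not mean a shared size of change.

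Tnfaip6, induced by inflammatory signals, encodes TSG-6, the protein that transfers heavy chains to hyaluronan. Its counts were 18, 34 and 15 in model and 30, 81 and 24 in treated tumors, or 1.52 ± 0.616 CPM against 3.29 ± 2.46 CPM (SD, n = 3 each). One library, treated replicate 2, was high, and the other treated libraries lay within the model range. The log2 fold change of 1.10 ± 0.58 (SE) went to 0.30 without that library. Ptx3, a pentraxin that acts with TSG-6 in the hyaluronan matrix, had 4, 14 and 6 counts in model and 7, 44 and 7 in treated tumors, with the same library highest, and it did not pass the filter on low counts.

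Vcan encodes versican, a large proteoglycan that binds hyaluronan through its N-terminal end and is laid down by stromal cells. It had 301, 581 and 208 counts in model and 582, 1040 and 327 in treated tumors, or 24.7 ± 11.99 CPM against 47.4 ± 28.6 CPM (SD, n = 3 each). Treated replicate 2 was again the highest library, and treated replicate 3, at 22.3 CPM, lay below model replicates 1 and 2. The log2 fold change of 0.93 ± 0.50 (SE) went to 0.35 without treated replicate 2, and without model replicate 2 it was 1.36.

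Relative to Vcan, Itih5 varied little across the treated tumors. For each 1000 counts of Vcan there were 280, 283 and 288 counts of Itih5 in the treated libraries and 156, 43.0 and 86.5 in the model libraries. The mean was 283 ± 3.75 in treated and 95.2 ± 57.0 in model libraries (SD, n = 3 each), and the groups did not overlap. The ratio was formed after the values of both genes were seen. Itih5 had 163, 294 and 94 counts in treated replicates 1 to 3, and their counting error is larger than the spread of the treated ratios. The closeness of these ratios is thus a description and does not show a fixed proportion.

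Summed markers of other cells differed between these libraries as well. Each list was summed per library in CPM. Fibroblast markers (Col1a1, Col3a1, Dcn, Pdgfra and others, 10 of 10 detected in every library) came to 4151, 7581 and 4577 CPM in model and 4486, 10920 and 4009 CPM in treated tumors. The highest library for this sum was treated replicate 2, followed by model replicate 2, which is also the order of Tnfaip6 at its top. Col1a1, Col1a2 and Col3a1 gave most of the sum, at 4210, 3127 and 2972 CPM in treated replicate 2. Pdgfrb, Thy1 and, barely, Fap were also highest in that library. Dcn, Lum and Dpt were highest in model replicate 2, and Pdgfra in treated replicate 3. Fat cell markers summed to 20.7, 14.96 and 10.57 CPM in model and 41.51, 90.87 and 10.97 CPM in treated tumors, with Adipoq, Plin1, Lep and Cidec at 0 in at least 1 library. Summed mesothelial markers were also highest in treated replicate 2, at 121.8 CPM against 68.28 to 85.96 CPM elsewhere. Msln gave nearly all of this sum, at 119 CPM in that library, where Upk3b had 0 counts. The part of these cell types in the values of Itih5, Tnfaip6 and Vcan was not tested.

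**Figure D3:**
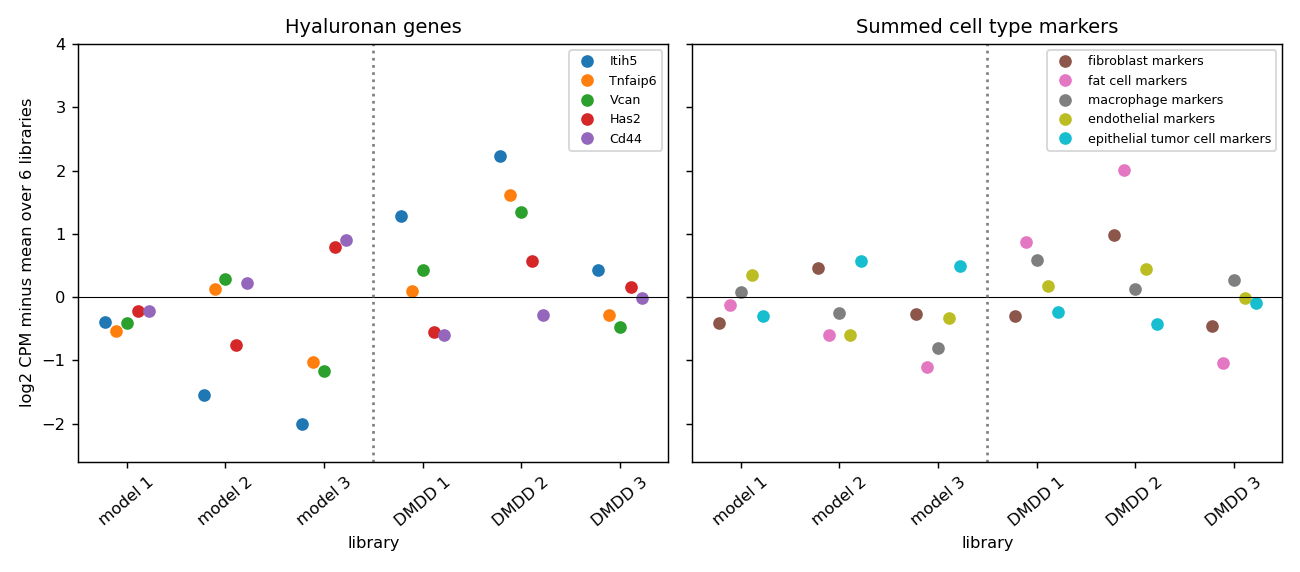
Log2 CPM of 5 hyaluronan genes (left) and of summed cell type markers (right) in each library, each centred on its mean over the 6 libraries, with a dotted line between the groups. DMDD liposome replicate 2 is the highest library for Itih5, Tnfaip6, Vcan, fibroblast markers and fat cell markers, and model replicate 3 the highest for Has2 and Cd44.

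Versican is cut by ADAMTS proteases and held by fibulins and fibrillin. Of 10 such genes 9 were tested, 7 higher and 2 lower, with a median log2 fold change of 0.016 that turned to -0.51 without treated replicate 2. None passed the adjusted threshold of edgeR or DESeq2, and 1 was higher at an unadjusted p under 0.05, beside 4.34% of all genes tested. This was Adamts9, a versican-cleaving protease gene, at 26.5, 10.9 and 15.1 CPM in model and 36.3, 27.0 and 28.2 CPM in treated tumors, a log2 fold change of 0.81 ± 0.31 (edgeR adjusted p = 0.629) without overlap. Its lowest treated library and its highest model library differed by less than 1 CPM. With each library left out in turn, edgeR's unadjusted p for Adamts9 was under 0.05 in 2 of 6 fits. Over all genes tested, 7.21% were higher in treated tumors without overlap. Fbln2, a fibulin gene and the list's highest at 132 FPKM, measured 633 ± 138 CPM against 635 ± 228 CPM.

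The remaining hyaluronan binding genes formed a list of 23, of which 9 were tested, 7 higher and 2 lower, with a median log2 fold change of 0.34 that went to 0.017 without treated replicate 2. EdgeR called 0 and DESeq2 called 0, and 3 were higher at an unadjusted p under 0.05, beside 4.34% of all genes tested: Stab1, Tlr2 and Tlr4. Stab1, a scavenger receptor of macrophages and sinusoidal vessels, measured 130, 94.1 and 82.6 CPM in model and 142, 198 and 153 CPM in treated tumors, at a log2 fold change of 0.69 ± 0.20 (edgeR adjusted p = 0.626). Tlr2 and Tlr4, innate immune receptors that can respond to hyaluronan fragments, stood at 0.40 ± 0.16 and 0.34 ± 0.14 (edgeR adjusted p = 0.630 and 0.641). None of the 3 overlapped between groups, as held for 7.21% of all genes tested in this direction. For Tlr4 the nearest libraries were at 38.1 CPM in model and 38.5 CPM in treated tumors. With each library left out in turn, edgeR's unadjusted p was under 0.05 in 6 of 6 fits for Stab1. For Tlr2 this held in 1 fit and for Tlr4 in 2. C1qbp, a largely mitochondrial protein that also binds hyaluronan, had the highest mean of the list at 100.4 FPKM and measured 115 ± 5.50 CPM against 121 ± 7.11 CPM.

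Macrophage markers (Adgre1, Csf1r, Cd68, Lyz2, Mrc1, C1qa, C1qb and C1qc), all detected in every library, summed to 2701, 2128 and 1453 CPM in model and 3809, 2771 and 3067 CPM in treated tumors. This sum was higher in each treated library than in any model library, but Lyz2 was the only one of the 8 markers without overlap. Without Lyz2, a choice made after the values were seen, the sums overlapped, at 1685, 1482 and 1121 CPM in model and 2075, 1663 and 1956 CPM in treated tumors. Of the 8 markers 7 were higher in treated tumors and Mrc1 was lower, at a log2 fold change of -0.24, and the median was 0.48. Endothelial markers (Pecam1, Cdh5, Kdr, Emcn, Egfl7 and Tek) summed to 267.6, 138.3 and 166.4 CPM in model and 236.1, 285.9 and 207.7 CPM in treated tumors. These sums overlapped, while all 6 genes were higher in treated tumors (median 0.38 in log2 fold change), 2 of them at an unadjusted p under 0.05. The part of both cell types in the values of Stab1, Tlr2 and Tlr4 was not tested.

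Breakdown of hyaluronan starts with hyaluronidases at the cell surface and in acid vesicles. Hyal2 encodes the surface-anchored enzyme that makes the first cuts. Its counts were 737, 821 and 672 in model and 973, 656 and 843 in treated tumors, or 51.2 ± 6.37 CPM against 58.6 ± 9.74 CPM (SD, n = 3 each). The groups overlapped, with treated replicate 2 below 2 of the model libraries, and the log2 fold change was 0.20 ± 0.16 (SE). Hyal2 was the steadiest of the 9 genes, with its highest library 1.64 times its lowest in FPKM, against 19.0 times for Itih5.

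Hyal1, the lysosomal hyaluronidase gene, had 89, 62 and 106 counts in model and 63, 96 and 44 in treated tumors, a log2 fold change of -0.27 ± 0.39 (SE) with overlapping groups. Hyal2 gave 88.02% to 95.69% of the summed FPKM of this pair. The annotated exons of Hyal1 overlap those of Hyal3 and Naa80 on the same strand, and those of Has3 and Has2 overlap Chtf8 and Has2os on the opposite strand. How the authors' counting assigned such reads is unknown here, so the low counts of Hyal1 and Has3 are uncertain. Set against synthesis, the FPKM ratio of Has2 to Hyal2 was 1.23, 0.902 and 3.17 in model and 0.794, 2.42 and 1.57 in treated tumors, with each group spanning values below and above 1.

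Of 10 further breakdown genes 6 were tested, 4 higher and 2 lower, with a median log2 fold change of 0.24. EdgeR called 0, with 1 higher at an unadjusted p under 0.05, beside 4.34% of all genes tested. DESeq2 called 1, beside 0.408% of the genes to which it gave an adjusted p. In both cases the gene was Hexa, which encodes the alpha chain of the lysosomal hexosaminidase that removes N-acetylglucosamine from hyaluronan fragments and other glycans. Hexa measured 87.9, 94.6 and 79.7 CPM in model and 125, 154 and 126 CPM in treated tumors, without overlap, a log2 fold change of 0.63 ± 0.12 (SE), or 1.55-fold higher in treated tumors (edgeR adjusted p = 0.626, DESeq2 adjusted p = 0.0198). Over all genes tested, 7.21% were higher in treated tumors without overlap. Hexa had the highest mean of the list, at 55.7 FPKM. DESeq2 lost the call without model replicate 3 (adjusted p = 0.247). The same happened without treated replicate 1 (adjusted p = 0.103) and without treated replicate 2 (adjusted p = 0.0630). The log2 fold change stayed between 0.515 and 0.682 in edgeR when any 1 library was left out.

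Gusb, the gene for lysosomal beta-glucuronidase, was likewise without overlap and higher in treated tumors, as held for 7.21% of all genes tested. It measured 128 ± 14.9 CPM in model and 153 ± 8.19 CPM in treated tumors (log2 fold change 0.26 ± 0.11). Lysosomal enzymes are abundant in macrophages, of whose 8 markers 7 were higher in treated tumors and 1, Lyz2, did not overlap, and their part in the values of Hexa and Gusb was not tested. Of the genes for enzymes acting outside the cell, Cemip, chosen for mention after its values were seen, had 191, 172 and 661 counts in model and 95, 134 and 242 in treated tumors. Model replicate 3, the library highest for Has2 and Cd44, was by a wide margin the highest for Cemip as well. Cemip2, a surface hyaluronidase gene listed under its older symbol Tmem2, measured 153 ± 11.9 CPM in model and 177 ± 31.2 CPM in treated tumors (SD, n = 3 each).

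**Figure D4:**
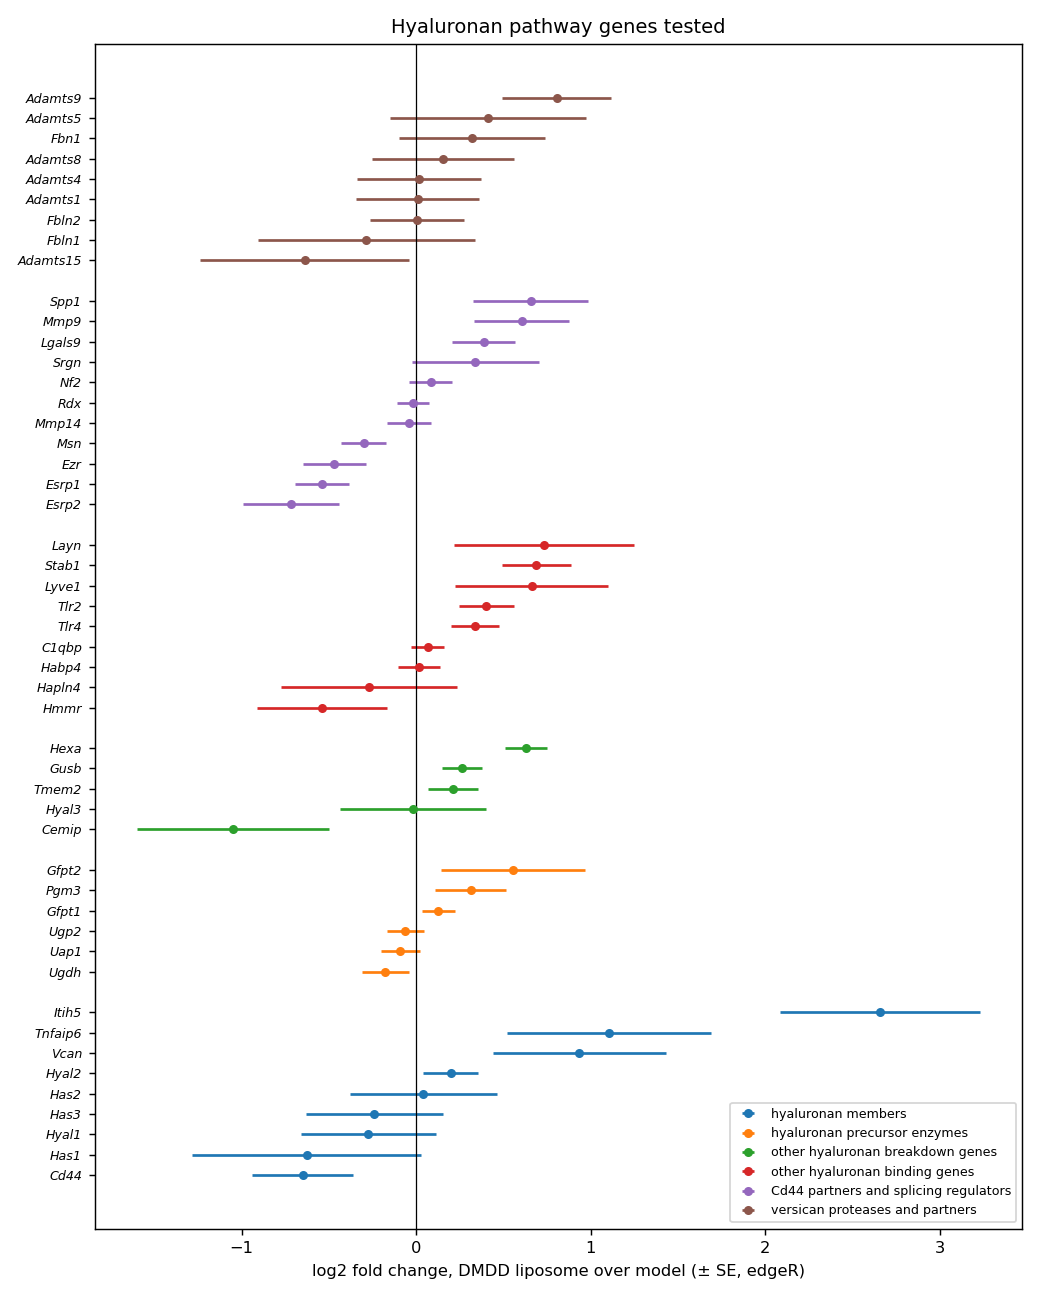
Log2 fold change of DMDD liposome over model with its SE for the 9 hyaluronan genes and tested genes of the 5 pathway lists, coloured by list. Itih5, at 2.66, lies furthest from 0, Cemip is the lowest at -1.05, and the precursor enzymes lie within 0.6 of 0.

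Leaving out each library in turn kept the sign of the log2 fold change in all 6 fits for Has1, Hyal1, Hyal2, Cd44, Itih5, Tnfaip6 and Vcan, and turned it in 3 of 6 for Has2 and 2 of 6 for Has3. The sign was barely kept for Hyal1, at -0.018 without treated replicate 3, and for Hyal2, at 0.065 without treated replicate 1. Itih5 ranged from 2.07 to 3.25, Cd44 from -0.88 to -0.30, Tnfaip6 from 0.30 to 1.46 and Vcan from 0.35 to 1.36. For both Tnfaip6 and Vcan the lowest value came without treated replicate 2 and the highest without model replicate 2, so the same libraries set the spread of this pair.

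**Figure D5:**
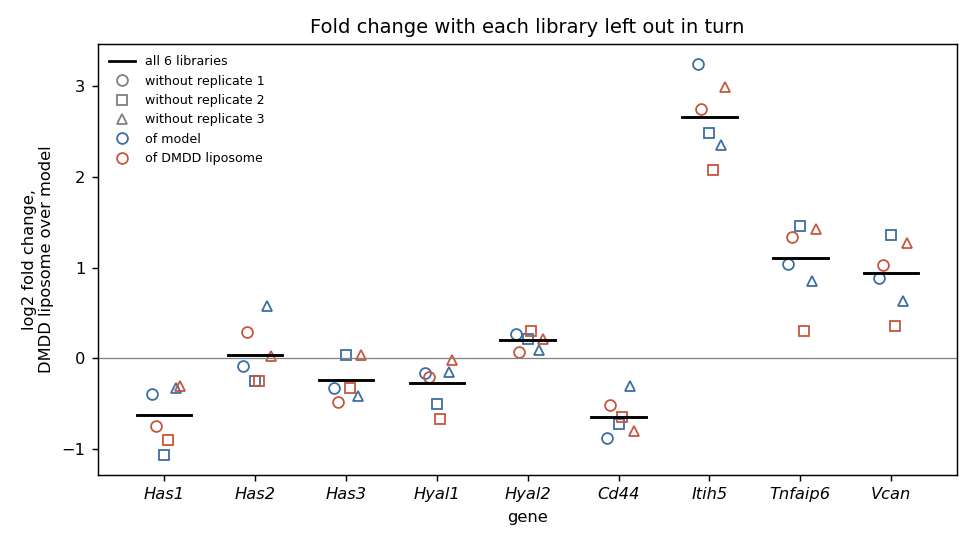
Log2 fold change of DMDD liposome over model for each of the 9 genes with all 6 libraries (black bars) and with each library left out (open points, coloured by the group and shaped by the replicate left out). Itih5 stays above 2 in every fit, and Tnfaip6 and Vcan drop to 0.30 and 0.35 without DMDD liposome replicate 2.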

How the data were processed

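Read counts per gene were used as deposited, per the file headers; all are whole, and the 6 libraries' totals differ. The authors' FPKM follow from counts, column totals and 1 whole-number length per gene for all 16763 genes (within 0.01 bases) and were used for levels between genes. The authors also deposited a normalized signal (counts over a size factor per library, from a constant ratio), not used further, log2 fold changes of model over DMDD liposome, and p-values with adjusted p-values. The submitters' processing notes name DESeq2 and mm9; an aligner, a counter, an annotation or a strand setting is not given in the sources used here.

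The count test was edgeR 4.0.16 under R 4.3.3 (filterByExpr with minimum count 10 and minimum total 15, TMM scaling, two-sided quasi-likelihood test over all 6 libraries, Benjamini-Hochberg adjustment over 12891 genes, threshold 0.05). SE were taken from the F statistic. CPM are TMM-scaled, and log2 CPM used a prior count of 2. DESeq2 1.42.0, DESeq2 size factors, no filter, a replicate block, limma 3.58.1 on log2(FPKM + 0.1) and leaving out each library were alternatives; DESeq2 without each library was added after seeing the data. Fits were tested on simulated counts. Libraries of a group differed from each other beyond sampling noise. Groups and replicate numbers came from the sample descriptions, which call the animals rats although organism and strain name a mouse; the symbols are mouse. The members and gene lists were chosen with earlier results of these data known. Every member is named; of the listed pathway genes, those with an edgeR unadjusted p under 0.05 and the highest by mean FPKM of each list are, and others were added after their values were seen. Hyal6, Spam1, Habp2, Acan, Itih1 and Lrrn4 were not analysed here. A further tested pathway gene enters its list's counts and median and is not reported or plotted here. Upstream sequences and exon overlaps by name came from RefSeq GRCm38.p6 and GENCODE M21.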

Additional observations from a re-analysis of the deposited data

How the results depend on the processing

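EdgeR called 0 genes and 0 members with DESeq2 size factors, without the filter on low counts and with the replicate block, as in the reported fit, and the DESeq2 test called 59 genes and 1 member, Itih5. Without each library in turn edgeR called 0 to 112 genes, the 112 without model replicate 1, and 0 members in each fit; DESeq2 called 867 (members Itih5 and Cd44, so 2), 30 and 18 genes without model replicates 1 to 3 and 20, 128 and 87 without DMDD liposome replicates 1 to 3, with 0 members without model replicate 3 and 1, Itih5, in the other 4 fits. The sign of Has2 turned without model replicate 1 (-0.090), model replicate 2 (-0.25) and DMDD liposome replicate 2 (-0.25), over a range of -0.25 to 0.58, and that of Has3 without model replicate 2 (0.036) and DMDD liposome replicate 3 (0.031), over a range of -0.48 to 0.036; the cause was not tested. Scaling, filter, block and limma on FPKM turned the sign of no member. With the replicate block, Itih5 stood at 2.61 ± 0.45, Cd44 at -0.60 ± 0.15 and Vcan at 0.87 ± 0.14 (SE). Without it their SE were 0.57, 0.29 and 0.50. The SE of Has1 and Hyal1 were larger with the block, at 0.74 and 0.44 against 0.65 and 0.39. Same-numbered libraries correlated at 0.0876, 0.114 and 0.121 in their deviations from group means, each library best with its own number. The labels give the numbers no shared origin and 1 value is under 0.1, so the reported fit did not treat the samples as paired. Whether they were paired is not known. Has1, Has3, Hyal1, Tnfaip6 and Itih5 in model had at most 106 counts in a library, so their folds carry a large counting error. For summed macrophage markers, the lowest treated library was 1.03 times the highest model library, and 0.987 times without Lyz2, an alternative chosen after seeing the data.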
